A study of Taeniopygia guttata with 21 samples.

Results

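The HOXA cluster genes HOXA2, HOXA3, HOXA4, HOXA6, HOXA7, HOXA9 and HOXA11 were measured by RNA sequencing across 7 locations of embryonic zebra finch skin. The members were the table rows carrying these symbols, by deposited name and by Entrez identifier alike, and they made up 7 of 18202 genes. The tissue was skin of wild type Taeniopygia guttata embryos at stage HH28, and the series looked for molecules restricted to presumptive colour domains. The dorsal locations were anterior, saddle and posterior, while the ventral side was sampled at its anterior end, ventral-most, at the flank and at its posterior end, with 3 libraries at each of the 7 locations and 21 in all. The labels give no treatment, transgene or altered allele for any group. Libraries bear the replicate numbers 3, 8 and 11 at every location. The labels do not say whether a number stands for an embryo, a pool or a day, so each p-value measures the spread between these libraries. In the data, libraries of the same number deviated alike from their location means (correlations of 0.27 to 0.53 between locations). The tests did not use this pairing unless a replicate block is named.

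HOX genes encode homeodomain transcription factors that give cells of the body axis their positional identity. They sit in clusters, and genes at one end of a cluster act towards the head while genes at the other end act towards the tail, an arrangement called collinearity. Genes with the same number in different clusters are paralogs and often have overlapping roles. In chick, skin of different body regions expresses different combinations of HOX genes while feather tracts form.

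The members lay in one stretch of chromosome 2 between 52555610 and 52644396 in the coordinates of the deposited table, for which the genome build is not given in the sources used here. All 7 were annotated on the minus strand, in the order of their numbers. The stretch held 9 rows, of which 2 had no name. It is not stated whether reads were counted by strand, so antisense reads cannot be told apart from those of the genes.

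Levels are normalised read counts, that is, the reads of a gene over the size factor of its library, and the values of a location are listed in the order of replicates 3, 8 and 11. Libraries held between 12852638 and 22994609 reads (median 18639448). Levels are compared between locations and not between genes, because gene lengths differ. In bulk tissue, fewer cells of a type and less RNA per cell cannot be told apart. Differences were tested with limma on log2(value + 1) in a single fit of all 21 libraries, and a gene is said to be called when its Benjamini-Hochberg adjusted p was below 0.05. Log2 fold changes are on that scale, each with its standard error (SE), and they understate the change of low genes.

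All 7 members passed the filter on low values (at least 10 in at least 3 libraries). HOXA11 reached 10 in 11 libraries, HOXA9 in 17 and the other members in 21. Limma called 7 of 7 for a difference among the locations, against 15.4% of the 14005 genes tested (2152 genes, or 4208 with the replicate number as a block). Ranked by this test among all genes, HOXA11 was 8th, HOXA3 12th, HOXA7 13th, HOXA9 16th, HOXA2 39th, HOXA4 161st and HOXA6 527th. The largest difference between location means ran from 2.59 on the log2 scale for HOXA3 to 10.64 for HOXA11.

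**Figure D1:**
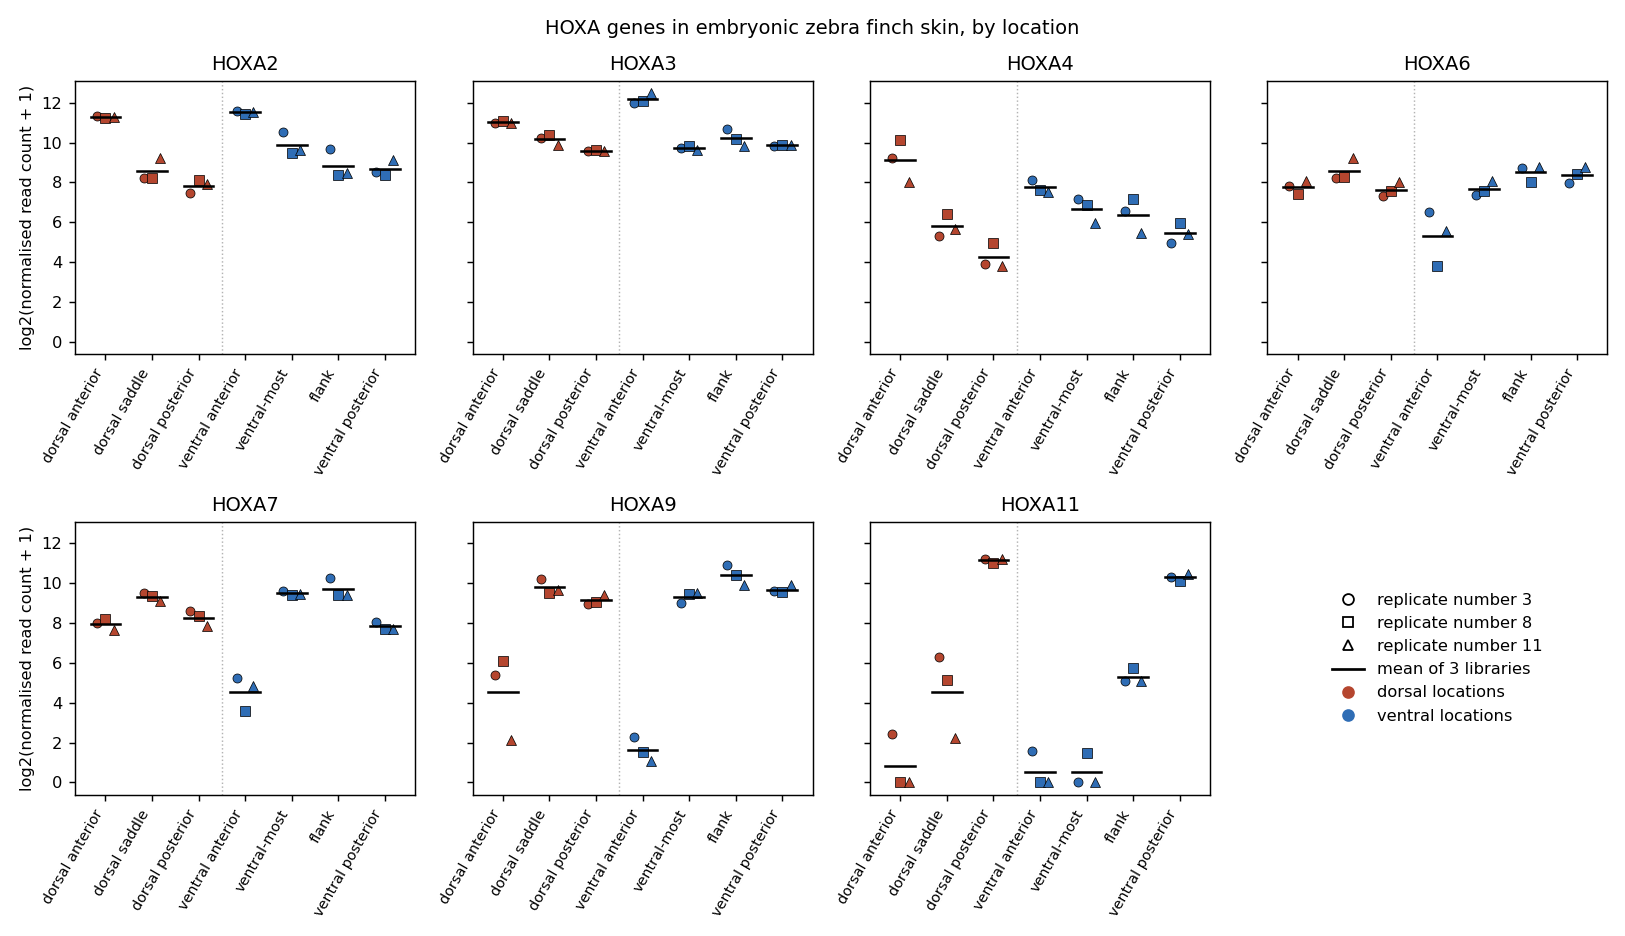
Each panel shows 1 gene, with log2(normalised read count + 1) on the y axis and the 7 locations on the x axis. Points are libraries with a symbol for each replicate number, and bars are means of 3 libraries. HOXA2, HOXA3 and HOXA4 are highest in the anterior locations, HOXA6 and HOXA7 are lowest in ventral anterior skin, and HOXA11 is at 1101 normalised counts or more in the 6 posterior libraries and at 77.7 or less in the others.

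HOXA2 (GSZG0006116, 52555610 to 52557425) patterns the hindbrain and the second pharyngeal arch in mouse. It stood at 2565, 2429 and 2485 normalised counts in dorsal anterior skin, at 295, 296 and 598 in the saddle and at 173, 274 and 242 in dorsal posterior skin. The 3 anterior libraries lay far above all others of the back. On the belly it gave 3021, 2778 and 2957 in ventral anterior skin, 1454, 715 and 783 in ventral-most skin, 816, 329 and 356 in the flank, and 361, 331 and 560 in ventral posterior skin. The ventral anterior libraries were the highest of the 21 and overlapped no other location. Ventral-most, flank, ventral posterior and saddle values overlapped each other in that order of means, and dorsal posterior skin was lowest, without overlap with the saddle above it. HOXA2 was higher in dorsal anterior than in dorsal posterior skin (log2 fold change 3.46, SE 0.35, adjusted p = 3.72e-05) and higher in ventral anterior than in ventral posterior skin (2.84, SE 0.35, adjusted p = 0.00019). The ventral call ended when all libraries of replicate number 8 were left out (2.73).

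HOXA3 (GSZG0005533, 52562758 to 52565510) is needed for the thymus, the parathyroid and neck structures in mouse. Its levels were 2011, 2189 and 2047 in dorsal anterior skin, 1180, 1333 and 954 in the saddle and 764, 794 and 748 in dorsal posterior skin. These 3 locations formed steps that did not overlap. Ventral anterior skin held 4105, 4291 and 5647, ventral-most skin 830, 906 and 792, the flank 1616, 1152 and 919, and ventral posterior skin 907, 947 and 946. The gene was thus detected at 748 or more in every library, with ventral anterior skin highest. In the order of means, dorsal anterior skin came second, the flank and the saddle overlapped, and ventral-most and dorsal posterior skin overlapped at the low end. HOXA3 was higher anteriorly on the back (1.44, SE 0.18, adjusted p = 0.000178) and on the belly (2.31, SE 0.18, adjusted p = 1.24e-06). Without replicate number 8 the difference on the back was not called (1.42).

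HOXA4 (GSZG0006117, 52583050 to 52584502) acts in the cervical vertebrae of the mouse. Its counts were 595, 1097 and 262 in dorsal anterior skin, 38.3, 84.8 and 49.0 in the saddle and 14.1, 29.8 and 13.1 in dorsal posterior skin. The dorsal anterior libraries were widely spread but all exceeded the rest of the back. Ventral anterior skin gave 277, 192 and 184, ventral-most skin 143, 117 and 61.9, the flank 92.2, 142 and 42.6, and ventral posterior skin 30.3, 60.2 and 41.0. Dorsal and ventral anterior values overlapped, ventral anterior and ventral-most values did not, and the means from ventral-most skin down to ventral posterior skin overlapped one with the next. The fold change over dorsal posterior skin was 4.89 (SE 0.53, adjusted p = 7.87e-05), and that of ventral anterior over ventral posterior skin was 2.32 (SE 0.53, adjusted p = 0.0316). The ventral difference was no longer called in 5 of 21 fits without a single library, namely without any 1 of the ventral anterior libraries (2.13, 2.39 and 2.42) or without ventral posterior replicate 3 (2.08) or 11 (2.30). It was also not called without any 1 of the replicate numbers (1.9, 2.65 and 2.4).

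HOXA6 (GSZG0006119, 52600825 to 52602843) is a gene of the thoracic region in mouse. It was measured at 228, 172 and 269 in dorsal anterior skin, 295, 305 and 596 in the saddle and 156, 190 and 257 in dorsal posterior skin. Anterior and posterior back overlapped almost fully. The belly differed: ventral anterior libraries held 90.5, 12.9 and 45.8, against 165, 189 and 270 in ventral-most skin, 428, 262 and 434 in the flank and 246, 335 and 434 in ventral posterior skin. Ventral anterior skin was the lowest location and overlapped none, while every other neighbour in the order of means overlapped the next. On the back the anterior to posterior fold change was 0.16 (SE 0.49, adjusted p = 0.999), and on the belly it was -3.08 (SE 0.49, adjusted p = 0.00284). The ventral call ended without replicate number 8 (-2.32) or 11 (-3.02).

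HOXA7 (GSZG0006120, 52610517 to 52612212), another thoracic gene in mouse, was highest in flank, ventral-most and saddle skin. Dorsal anterior skin held 256, 291 and 201, the saddle 735, 651 and 554, and dorsal posterior skin 385, 328 and 231. The saddle lay above both ends of the back without overlap. Ventral anterior skin held 36.97, 11.03 and 27.25, ventral-most skin 775, 682 and 701, the flank 1232, 673 and 689, and ventral posterior skin 267, 209 and 209. Flank, ventral-most and saddle values overlapped at the top, dorsal posterior, dorsal anterior and ventral posterior values overlapped below them, and ventral anterior skin stood apart at the bottom. On the back the ends did not pass the test (-0.32, SE 0.34, adjusted p = 0.894). On the belly HOXA7 was lower in the anterior (-3.28, SE 0.34, adjusted p = 2.12e-05).

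HOXA9 (GSZG0005534, 52621121 to 52622902) acts in the posterior trunk and the proximal limb of the mouse. In dorsal anterior skin its counts were 41.2, 67.0 and 3.39, against 1182, 737 and 819 in the saddle and 501, 534 and 667 in dorsal posterior skin. Dorsal anterior replicate 11 was far below the other libraries of its location, and all 3 were below the rest of the back. On the belly HOXA9 gave 3.89, 1.84 and 1.09 in ventral anterior skin, 515, 701 and 717 in ventral-most skin, 1959, 1381 and 950 in the flank, and 766, 745 and 947 in ventral posterior skin. The ventral anterior libraries together held 7 reads, against 2200 in the ventral posterior ones, lower by a factor of 358 (95% counting interval 173 to 892). Flank, saddle and ventral posterior values overlapped in that order, as did ventral-most and dorsal posterior values beneath them, and the anterior locations overlapped each other below all of these. HOXA9 was lower anteriorly on the back (-4.60, SE 0.66, adjusted p = 0.000663) and on the belly (-8.05, SE 0.66, adjusted p = 1.85e-06).

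HOXA11 (GSZG0006122, 52641989 to 52644396) patterns the sacral region, the kidney and the middle segment of the limb in mouse. It was read in dorsal anterior skin at 4.38, 0 and 0, in the saddle at 77.7, 34.5 and 3.63 and in dorsal posterior skin at 2346, 2093 and 2338. The dorsal posterior libraries were far above every other library of the back. Ventral anterior skin held 1.95, 0 and 0, ventral-most skin 0, 1.82 and 0, the flank 33.2, 52.4 and 32.5, and ventral posterior skin 1282, 1101 and 1403. Dorsal posterior skin overlapped no location, nor did ventral posterior skin below it, and the flank and the saddle overlapped. HOXA11 was lower in dorsal anterior than in dorsal posterior skin (-10.33, SE 0.84, adjusted p = 4.74e-06), with 5 reads against 7632, a factor of 1560 (95% counting interval 666 to 4790). In ventral anterior skin 2 reads stood against 3398 in ventral posterior skin, lower by a factor of 1940 (535 to 16000, limma adjusted p = 2.53e-06). Ventral-most skin also held 2 reads, lower than ventral posterior skin by a factor of 1880 (520 to 15500, adjusted p = 7.33e-06). A library's floor of 3 reads lay between 2.35 and 4.11 normalised counts, so levels below it are at the limit of detection at this depth.

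**Figure D2:**
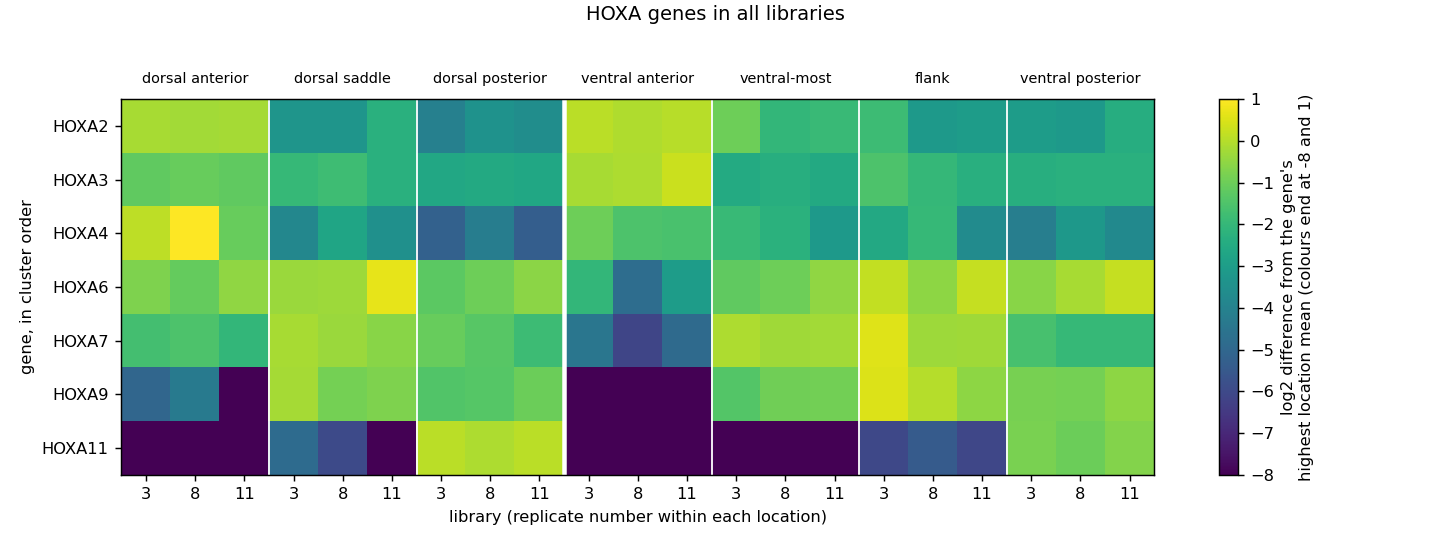
Rows are the 7 genes in cluster order and columns are the 21 libraries, grouped by location and labelled by replicate number. Colour is the log2 difference of a library from the highest location mean of that gene, ending at -8 and 1. The high values move from the anterior columns for HOXA2, HOXA3 and HOXA4 to the posterior columns for HOXA11.

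Anterior and posterior skin of the back were compared to ask which members are graded along it. HOXA2, HOXA3 and HOXA4 were higher in dorsal anterior skin and HOXA9 and HOXA11 lower, while HOXA6 and HOXA7 were not called. Limma thus called 5 of 7, against 2.27% of all genes (0.757% higher and 1.51% lower in dorsal anterior skin). All genes called numbered 318, or 740 with the replicate block. The median of the 7 log2 fold changes was 0.16, beside 0.02 over all genes. Each of the 5 called members had the same sign in all 3 replicate numbers. HOXA9 was not called when only the 6 libraries compared were fitted (adjusted p = 0.0818).

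On the belly the same comparison called all 7 members, 3 of them higher and 4 lower in ventral anterior skin. Over all genes 1.76% were called (0.921% higher and 0.835% lower in ventral anterior skin), which was 246 genes, or 589 with the replicate block. The median of the members was -3.08 and that of all genes 0.00. HOXA2, HOXA3 and HOXA4 formed the higher group, as on the back, and HOXA6 and HOXA7 joined HOXA9 and HOXA11 in the lower group. With the 6 compared libraries alone, HOXA4 (adjusted p = 0.0691), HOXA6 (0.136) and HOXA7 (0.0531) were not called.

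**Figure D3:**
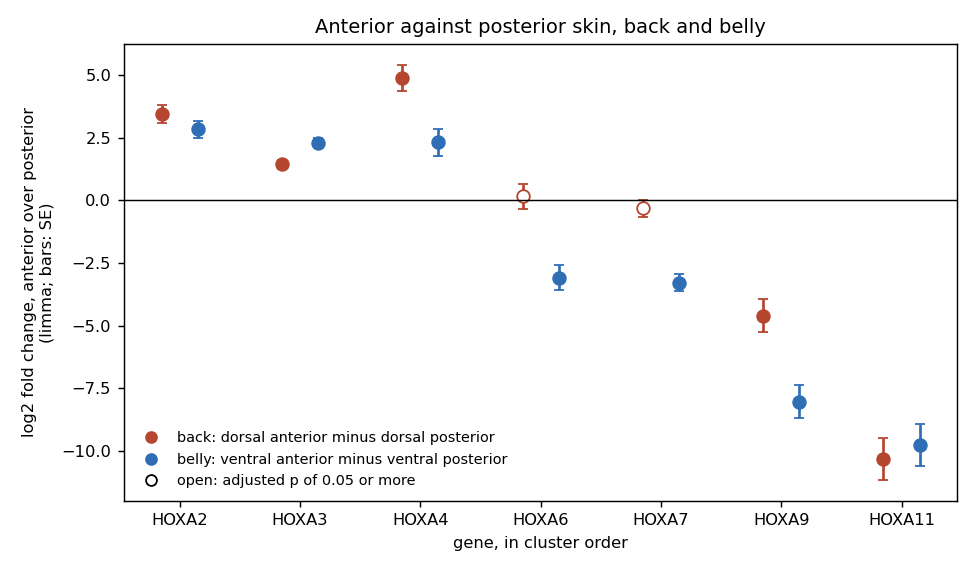
Log2 fold changes of anterior over posterior skin are plotted for the 7 genes in cluster order, on the back and on the belly, with bars for the SE of the limma fit. Filled points have an adjusted p below 0.05. HOXA6 and HOXA7 are near 0 on the back, at 0.16 and -0.32, and at -3.08 and -3.28 on the belly.

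The difference between those contrasts was tested directly. HOXA6 (3.24, SE 0.70, adjusted p = 0.038) and HOXA7 (2.96, SE 0.48, adjusted p = 0.00869) had anterior to posterior changes that differed between back and belly. These were 2 of 7 members, against 0.828% of all genes (0.35% with a positive and 0.478% with a negative difference; 116 genes, 411 with the replicate block), and the members' median was 2.57 beside 0.00. With the replicate block 4 members were called, HOXA4 (2.57, adjusted p = 0.0163) and HOXA9 (3.45, adjusted p = 0.0457) being added. DESeq2 called 5, with HOXA3 (adjusted p = 0.0318) beside these 4. HOXA9 was also called by edgeR (0.0307) and without dorsal anterior replicate 11 (4.65, adjusted p = 0.000246), the library low in HOXA9, and HOXA4 without that same library (3.12, adjusted p = 0.0493). HOXA6 lost its call in 12 of 21 fits without a single library, with values between 2.49 and 3.85 over the 21 fits, and with edgeR (0.0591). It kept the call without saddle replicate 3 or 11, dorsal posterior replicate 11, ventral anterior replicate 3 or 8, ventral-most replicate 11 or any 1 flank library. Leaving out all libraries of any 1 replicate number ended the calls of HOXA6 (2.63 to 3.87) and of HOXA7 (2.46 to 3.32). Such fits have fewer libraries at every location. Over all genes, calls for this difference fell from 116 to as low as 0 without a library or replicate number.

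Stepwise comparisons were made along each side, and they share libraries with the contrasts above. On the belly ventral-most skin was taken as the middle location, although its label gives no anterior to posterior position. From dorsal anterior to saddle skin the members divided much as they did over the whole back. HOXA2 (2.73, SE 0.35), HOXA3 (0.86, SE 0.18) and HOXA4 (3.33, SE 0.53) were higher in dorsal anterior skin, and HOXA9 (-5.27, SE 0.66) and HOXA11 (-3.74, SE 0.84) were lower. These were 5 of 7, against 0.778% of all genes (0.164% higher and 0.614% lower in dorsal anterior skin; 109 genes, 256 with the block). HOXA7 was added with the block (-1.38, adjusted p = 0.0144, against 0.0706 without it). The call of HOXA11 (adjusted p = 0.0445) was lost in 16 of 21 fits without a single library (-4.91 to -2.87), with the other pseudocounts (0.0503 and 0.0577) and with no filter (0.0557). It was kept without dorsal anterior replicate 3, saddle replicate 11, ventral anterior replicate 3, ventral-most replicate 8 or flank replicate 3. The call of HOXA3 (adjusted p = 0.0239) was lost without dorsal anterior replicate 3 (0.89) or 8 (0.83) or saddle replicate 3 (0.88) or 11 (0.73). Without replicate number 8 none of the 5 calls was kept, with HOXA2 at 2.59 (adjusted p = 0.147), HOXA4 at 3.16 (0.147) and HOXA9 at -6.18 (0.0539). HOXA4 and HOXA9 were also not called without replicate number 3 (adjusted p = 0.292 and 0.0774) or with the compared libraries alone (0.0885 and 0.116). HOXA3 and HOXA11 were not called without any 1 replicate number, nor HOXA3 with the compared libraries alone (0.139).

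Between saddle and dorsal posterior skin HOXA11 was the member called (-6.59, SE 0.84, adjusted p = 0.00519), lower in the saddle. It was 1 of 7, against 0.157% of all genes (0.114% higher and 0.0428% lower in the saddle; 22 genes, 97 with the block). The other 6 members had positive fold changes between 0.57 and 1.56 that did not pass the test. The values of each of these 6 did not overlap between the locations, the saddle being above dorsal posterior skin, and HOXA7, for example, gave 1.06 (SE 0.34, adjusted p = 0.429). The call of HOXA11 ended without any 1 replicate number (-7.43, -6.94 and -5.39), and with the compared libraries alone (adjusted p = 0.2).

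On the belly the step from ventral anterior to ventral-most skin carried changes in HOXA2 (1.64, SE 0.35) and HOXA3 (2.46, SE 0.18), higher in the anterior, and in HOXA6 (-2.39, SE 0.49), HOXA7 (-4.94, SE 0.34) and HOXA9 (-7.70, SE 0.66), lower there. These made 5 of 7, against 1.90% of all genes (1.11% higher and 0.793% lower in ventral anterior skin; 266 genes, 645 with the block). HOXA4 gave 1.07 (SE 0.53, adjusted p = 0.508). Calls of HOXA2 ended without ventral anterior replicate 8 (1.68) or 11 (1.63) or ventral-most replicate 8 (1.45) or 11 (1.51). Those of HOXA6 ended without ventral anterior replicate 8 (-1.64) or ventral-most replicate 8 (-2.44) or 11 (-2.18). Without replicate number 8 or 11, neither HOXA2 (adjusted p = 0.411 and 0.205) nor HOXA6 (0.33 and 0.226) was called, and HOXA6 was not called with the compared libraries alone (0.177).

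From ventral-most to ventral posterior skin HOXA11 was lower in ventral-most skin and HOXA7 higher (1.66, SE 0.34, adjusted p = 0.029). They were 2 of 7, against 0.643% of all genes (0.25% higher and 0.393% lower in ventral-most skin; 90 genes, 329 with the block). HOXA7 lost this call without any 1 of the 6 libraries compared (1.60 to 1.77) and without any 1 replicate number (1.62 to 1.72), although the values of the locations did not overlap. HOXA11 lost its call without replicate number 8 (adjusted p = 0.0533).

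Back and belly were then set against each other at the same end of the trunk. At the anterior end HOXA6 (2.5, SE 0.49, adjusted p = 0.00384), HOXA7 (3.40, SE 0.34, adjusted p = 1.41e-05) and HOXA9 (2.92, SE 0.66, adjusted p = 0.00931) were higher in dorsal than in ventral skin. HOXA3 was lower in dorsal anterior skin (-1.15, SE 0.18, adjusted p = 0.000498). Limma called 4 of 7, against 7.69% of all genes (3.73% higher and 3.96% lower in dorsal anterior skin; 1077 genes, 2021 with the block). HOXA4 was added with the block (1.37, adjusted p = 0.0227, against 0.15 without it). HOXA2 gave -0.23 (SE 0.35, adjusted p = 0.869), although its values did not overlap. Its log2 SD was 0.04 in dorsal anterior and 0.06 in ventral anterior skin, while the SE pools the spread of all locations. The call of HOXA9 ended without dorsal anterior replicate 3 (2.49) or 8 (2.15), and its value was 4.12 without replicate 11, the dorsal anterior library low in HOXA9. It was not called without replicate number 3 (adjusted p = 0.14) or 8 (0.334) either. HOXA6 was not called without number 8 (0.0851) or 11 (0.0687) or with the compared libraries alone (0.0983), and HOXA3 was not called without number 8 (0.0501).

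Cell type markers moved in the same comparison of dorsal with ventral anterior skin. Limma called 5 of 5 epidermis markers higher in dorsal anterior skin, and 3 of 5 neuron, 2 of 4 endothelium, 2 of 7 dermis and 1 of 5 limb bud markers lower there. Of 9 neuron markers 7 were found, with sums between 755.8 and 1175 in dorsal anterior and between 1260 and 1790 in ventral anterior libraries and with ELAVL3 at 0 in both locations. Of 6 endothelium markers 4 were found, with sums between 378 and 902 in dorsal anterior and between 1573 and 3227 in ventral anterior libraries. The part of these markers in the HOXA differences was not tested.

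At the posterior end limma called 0 of 7 members between dorsal and ventral skin, against 1.32% of all genes (0.728% higher and 0.593% lower in dorsal posterior skin; 185 genes, 578 with the block). The count was 0 with edgeR, with DESeq2 and with the block, and 2 at an unadjusted p below 0.05. The fold changes lay between -1.21 (HOXA4, SE 0.53) and 0.84 (HOXA11, SE 0.84). HOXA11 averaged 2259 ± 144 in dorsal posterior and 1262 ± 152 in ventral posterior skin (SD, n = 3 each), without overlap of its values. On the log2 scale its SD was 0.09 in dorsal posterior and 0.18 in ventral posterior skin, against 2.11 in the saddle and 1.4 in dorsal anterior skin. The SE of 0.84 pools the spread of all locations, so the limma result for HOXA11 does not show that the posterior ends were alike.

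The dorsal to ventral contrast was the mean of the 3 dorsal minus the mean of the 4 ventral locations. It called HOXA7 (0.62, SE 0.18, adjusted p = 0.0241) and HOXA11 (1.35, SE 0.45, adjusted p = 0.0479) as higher dorsally. They were 2 of 7, against 17.2% of all genes (9.31% higher and 7.89% lower dorsally; 2409 genes, 4084 with the block). The members' median was 0.07, beside 0.00 over all genes. With 3 dorsal and 4 ventral locations, each dorsal location weighs more in its mean than each ventral location does. Between the posterior ends alone, limma gave 0.84 for HOXA11 (SE 0.84, adjusted p = 0.882) and 0.44 for HOXA7 (SE 0.34, adjusted p = 0.793). Both SEs pool the spread of all locations, and the HOXA11 values of the posterior ends did not overlap. The HOXA7 means in the flank (864.8) and in ventral-most skin (719.5) were above that of every dorsal location, the highest being the saddle (646.8). The lowest HOXA7 mean of all locations was that of ventral anterior skin (25.1). The part of single locations in these calls was not tested. HOXA2 was called with the block (-0.50, adjusted p = 0.0488, against 0.0771). The call of HOXA11 was lost in 16 of 21 fits without a single library (1.06 to 1.74) and with edgeR (0.0651), and that of HOXA7 without dorsal anterior replicate 8 (0.58), saddle replicate 3 (0.59) or dorsal posterior replicate 3 (0.57). HOXA11 kept its call without dorsal anterior replicate 8 or 11, saddle replicate 11, ventral anterior replicate 3 or ventral-most replicate 8. Without a replicate number, HOXA7 lost its call for numbers 8 (0.38) and 11 (0.76) and HOXA11 for numbers 3 (0.82) and 8 (1.49).

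Within a library, the ratio of HOXA9 to HOXA11 reads does not depend on the size factor. As log2 of (reads + 1), it was between -2.22 and -1.81 in dorsal posterior and between -0.74 and -0.56 in ventral posterior libraries. It lay between 3.91 and 7.5 in the saddle and between 4.69 and 5.83 in the flank. The posterior libraries thus all lay below those of the saddle and the flank. No ratio is given for the anterior and ventral-most locations, where HOXA11 had between 2 and 5 reads over 3 libraries.

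The unnamed rows inside the cluster are not members but share its stretch of chromosome. GSZG0006121 (52629491 to 52631814) lies between HOXA9 and HOXA11. It had counts of 0, 8.82 and 0 in dorsal anterior skin, 4257, 2271 and 752 in the saddle and 2480, 1879 and 2999 in dorsal posterior skin. Ventral anterior skin held 7.78, 3.68 and 0, ventral-most skin 4.99, 146 and 179, the flank 1497, 1467 and 1173, and ventral posterior skin 2643, 3423 and 5219. Unlike HOXA9 it was low in ventral-most skin, and unlike HOXA11 it was high in the saddle and the flank. GSZG0006118 (52596982 to 52598780), between HOXA4 and HOXA6, was highest in dorsal anterior skin at 1402 ± 527, against 200 ± 21.5 in dorsal posterior skin (SD, n = 3 each; 2.73, SE 0.37, adjusted p = 0.00042). On the belly its anterior and posterior levels were 469 ± 218 and 476 ± 12.8 (SD, n = 3 each; -0.16, SE 0.37, adjusted p = 0.998).

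HOX genes of the other clusters, some of them paralogs of members, were read beside the members. Of 12 HOXB, HOXC and HOXD genes with a symbol, 4 had numbers 1 to 5, 3 had 6 to 8 and 5 had 9 to 13. In the first group 1 of 4 was called on the back, HOXD4 (2.90, SE 0.44), higher in dorsal anterior skin, and 0 of 4 on the belly by limma (0 with edgeR, 1 with DESeq2, 2 unadjusted), where all 3 HOXA members of these numbers were called. HOXD4 held 1787, 1724 and 1442 in dorsal anterior skin and 228, 54.3 and 82.8 in ventral anterior skin. HOXD4 was thus high in anterior skin of the back alone, whereas HOXA2 and HOXA3 were high in anterior skin of either side, with the higher mean ventrally. Its paralog HOXA4 had the higher mean dorsally, at 651 in dorsal anterior and 218 in ventral anterior skin, with overlapping values. The limma difference was 1.37 (SE 0.53, adjusted p = 0.15, or 0.0227 with the block). The medians of the 4 genes in this first group were 1.05 on the back and -0.73 on the belly.

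In the second group limma called 0 of 3 on the back (0 with edgeR, with DESeq2 and unadjusted) and 3 of 3 on the belly, all lower in ventral anterior skin. HOXB7, the paralog of HOXA7, gave -0.04 (SE 0.55, adjusted p = 0.999) on the back, where it averaged 105 ± 65.6 in dorsal anterior and 89.9 ± 20.8 in dorsal posterior skin (SD, n = 3 each). On the belly it had 2 reads in the ventral anterior libraries together, against 209 in the ventral posterior ones (adjusted p = 8.39e-06). HOXB7 and HOXA7 were both lowest in ventral anterior skin and both high in ventral-most and flank skin. HOXC6, the paralog of HOXA6, had 0 reads in ventral anterior skin, against 39 in ventral posterior skin, at least 15.1-fold lower at a floor of 3 reads over the group (adjusted p = 0.00115). HOXB8 had 2 reads in ventral anterior skin, against 44 in ventral posterior skin (adjusted p = 0.0402). The median of the 3 genes was -0.04 on the back and -3.97 on the belly, or -3.92 with HOXC6 at its bound.

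In the third group 4 of 5 were lower in dorsal anterior skin and 3 of 5 in ventral anterior skin, with medians of -6.20 and -4.14 (edgeR called 4 and 2). HOXC9, the paralog of HOXA9, was lower anteriorly on the back (-7.68, SE 0.66, adjusted p = 4.74e-06) and on the belly (-7.85, SE 0.66, adjusted p = 2.41e-06). HOXB9 was lower in dorsal anterior skin (-3.46, SE 0.71, adjusted p = 0.0128), and in ventral anterior skin it had 1 read, against 295 in ventral posterior skin (adjusted p = 6.81e-05). In the flank, where HOXA9 was highest, HOXB9 held 0, 2.02 and 6.09. Ventral-most skin held 29.9, 124 and 57.1 for HOXB9. HOXD10 was lower in dorsal anterior skin (-6.20, SE 0.92, adjusted p = 0.000881) and in ventral anterior skin (-4.14, SE 0.92, adjusted p = 0.0246).

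HOXD11, the paralog of HOXA11, had 0 reads in dorsal anterior skin, against 1941 in dorsal posterior skin, at least 615-fold lower at a floor of 3 reads over the group (adjusted p = 0.000129). It held 676, 777 and 148 in dorsal posterior skin, and in ventral posterior skin it held 0, 0 and 4.10. HOXA11 was high in all 6 of those libraries. HOXD11 was not confined to the back, as it held 66.4, 243 and 154 in the flank. The difference between paralogs was not tested.

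**Figure D4:**
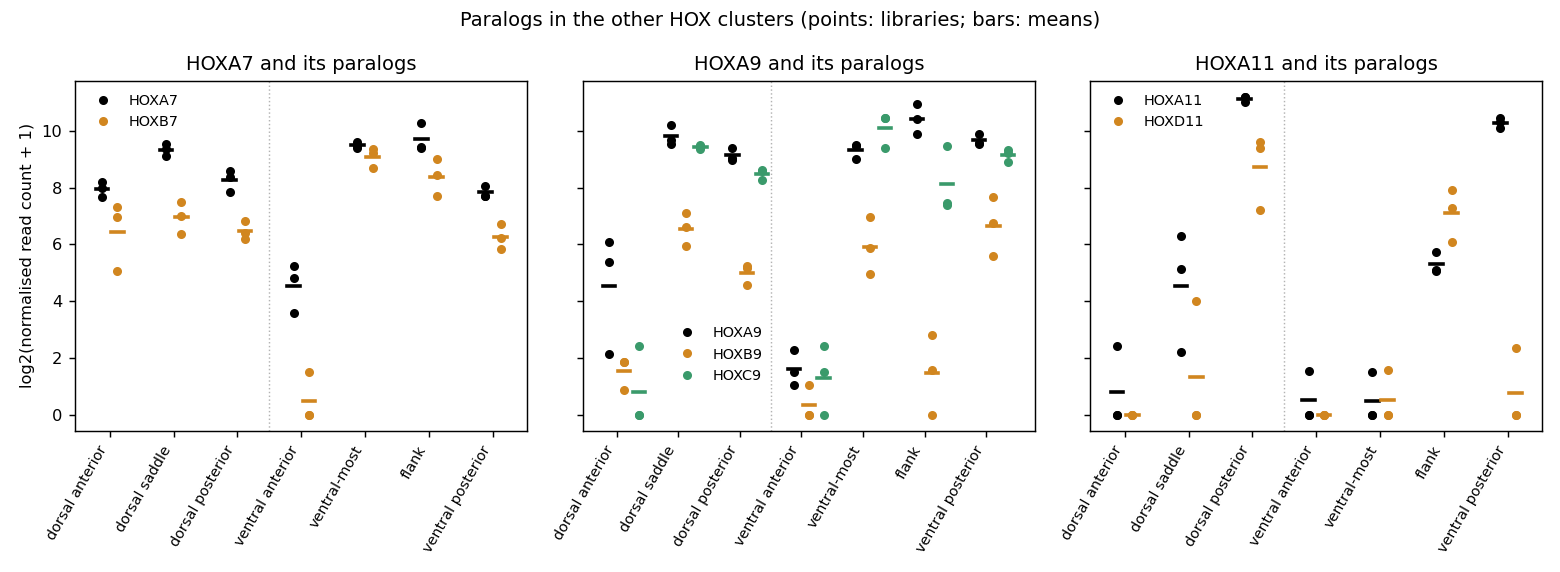
Log2(normalised read count + 1) of HOXA7, HOXA9 and HOXA11 and of paralogs in other clusters is plotted by location, with points for libraries and bars for means of 3. HOXB9 is near 0 in the flank, where HOXA9 is highest, and HOXD11 is near 0 in ventral posterior skin, where HOXA11 is at 1101 to 1403 normalised counts.

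Genes that act with HOX proteins or on HOX clusters were counted from lists. Of 9 listed cofactor genes of the PBX, MEIS and PKNOX families, whose proteins bind DNA together with HOX proteins, 3 were found by symbol and tested. Limma called 0 of these on the back and 0 on the belly (0 with edgeR, with DESeq2 and unadjusted on either side), with medians of -0.19 and 0.22. Of 11 tested chromatin regulators, such as Polycomb and trithorax group genes, 0 were called on either side (0 with edgeR and DESeq2, and 0 on the back and 1 on the belly unadjusted), with medians of 0.07 and -0.15. Of 8 tested axial regulators, 1 was higher in dorsal anterior than in dorsal posterior skin, the retinoic acid receptor gene RARA (1.08, SE 0.26, adjusted p = 0.0376). It held 139, 158 and 115 in dorsal anterior skin and 59.8, 65.8 and 65.7 in dorsal posterior skin.

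On the belly 1 of those 8 was higher in ventral anterior skin and 1 lower. The retinoic acid synthesis gene ALDH1A2 held 195, 1931 and 1920 in ventral anterior skin, against 64.8, 38.3 and 53.3 in ventral posterior skin (4.11, SE 0.75, adjusted p = 0.00726). TBXT, the brachyury gene of the tail bud and notochord, held 3.89, 2.76 and 16.4 in ventral anterior skin, against 39.7, 54.8 and 44.1 in ventral posterior skin (-2.78, SE 0.59, adjusted p = 0.0173). Neither gene was highest at these ends. TBXT means were highest in the saddle (138) and the flank (125), and were 17.7 in dorsal anterior and 16.2 in dorsal posterior skin. ALDH1A2 had its highest mean in the flank (2186), against 1349 in ventral anterior skin. Medians of the 8 genes were 0.16 on the back and 0.04 on the belly.

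Genes outside the HOXA cluster were ranked for likeness to each member by Pearson correlation of log2(value + 1) over the 21 libraries, which share their locations and replicate numbers. The other members were left out of this ranking, and some of them were closer than the genes named. For HOXA7 the top genes were HOXB7 (0.93) and HOXC6 (0.89), and for HOXA9 HOXC9 (0.90) and HOXB7 (0.82). The genes nearest to HOXA11 were the secreted matrix genes SMOC2 (0.84) and FBLN1 (0.81). For HOXA2 they were VAPB (0.79) and RARA (0.78), for HOXA3 GABRB2 (0.85) and MSC (0.83), for HOXA4 NDST1 (0.80) and SLC18B1 (0.80), and for HOXA6 PIK3R1 (0.82) and GAB2 (0.81). Among the members, the pair HOXA2 and HOXA4 and the pair HOXA7 and HOXA9 had the highest correlations (0.85 each), above the outside genes named for HOXA2 and HOXA4. HOXA3 and HOXA9 had the lowest (-0.88).

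The skin label was checked by marker lists, and several lists moved with the locations compared. Of 10 epidermis markers 5 were found and summed to between 28450 and 35740 in dorsal anterior, 17270 and 19670 in dorsal posterior, 7947 and 12190 in ventral anterior and 13360 and 17140 in ventral posterior libraries, with none at 0. Limma called 1 of 5 higher in dorsal anterior than in dorsal posterior skin (1 with edgeR, 2 with DESeq2, 4 unadjusted). It called 1 of 5 lower in ventral anterior than in ventral posterior skin (0 with edgeR, 1 with DESeq2, 1 unadjusted). Of 10 dermis markers 7 were found, with sums between 143100 and 285200 and none at 0. Limma called 1 of 7 of these on the back, higher in dorsal anterior skin (1 with edgeR and with DESeq2, 5 unadjusted in either direction). The list as a whole went the other way, with a median of -0.50. Its sums lay between 146800 and 173800 in dorsal anterior and between 178200 and 235100 in dorsal posterior libraries. On the belly limma called 1 dermis marker higher and 1 lower in ventral anterior skin (2 with edgeR and with DESeq2, 4 unadjusted), with a list median of -0.46. Of 5 tested neuron markers 1 was higher in ventral anterior than in ventral posterior skin. The list sums lay between 1260 and 1790 in ventral anterior and between 920.0 and 2586 in ventral posterior libraries. In these sums ISL1 alone had the higher mean in ventral posterior skin, at 1020 against 171 in ventral anterior skin. STMN2 averaged 35.8 in ventral posterior and 265 in ventral anterior skin, and NEFM 10.7 and 307. On the back limma called 0 of the 5 (0 with edgeR, 1 with DESeq2, 1 unadjusted). Of the 4 tested endothelium, 3 cartilage, 1 mesothelium or kidney and 1 gut markers, 0 were called on the back or the belly by limma (0 with edgeR, with DESeq2 and unadjusted). Of 7 neural tube progenitor markers 2 were found. SOX2 was at 0 in every library, and DBX1 was at 0 outside dorsal anterior skin, where it reached 3.53. The part of these lists in the HOXA results was not tested.

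Limb bud markers are given beside HOXA11, which limb buds express. Of 10 limb bud markers 6 were found, and their sums lay between 303 and 932.6 in dorsal anterior and between 268 and 4700 in dorsal posterior libraries. They lay between 766 and 4172 in ventral anterior skin and between 2857 and 6143 in ventral posterior skin. Limma called 0 of the 5 tested on the back and 0 on the belly (0 with edgeR and DESeq2, 1 unadjusted on either side). Between dorsal and ventral posterior skin it called 1 of the 5, lower dorsally (2 with the block, 3 unadjusted). Between ventral-most and ventral posterior skin it called 1 of the 5, lower in ventral-most skin (2 with DESeq2 and with the block). The hindlimb regulator PITX1 lay between 6.27 and 52.3 in dorsal posterior and between 1870 and 2110 in ventral posterior libraries. LHX9 lay between 0 and 3.14 in dorsal posterior and between 6.27 and 1590 in ventral posterior libraries, and MSX1 between 215 and 4680 in dorsal posterior and between 104 and 3960 in ventral posterior libraries. HOXD13 lay between 3.28 and 11.6 in dorsal posterior libraries and was at 0 in the ventral posterior ones. SHH and FGF8 were at 4.38 or less in both locations. The part of limb bud tissue in the HOXA11 levels was not tested.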

How the data were processed

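RNA from 21 skin libraries was amplified with SMART-Seq v4 and sequenced after Nextera XT preparation, per the labels' protocols. DESeq2, FastQC, Picard, SAMtools and STAR 2.4.0 are listed by the submitters' processing notes with no role. The genome build, annotation and counting program were not given in the sources used here. Values deposited by the authors are a size-factor-normalised signal, reads of a gene over one factor per library, as the file's title and its values show. Every column was a whole multiple of one step, and dividing by it gave whole reads for 100.0% of values within 0.01 reads. Counting intervals and the floor of 3 reads cover counting error only, since the libraries carry no molecular identifiers.

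Symbols came from a RefSeq gene table of bTaeGut7.mat by Entrez identifier, otherwise from the deposited name, which gave 8546 of 18202 genes one. No coordinates were taken from it. Limma 3.58.1 in R 4.3.3 (trend and robust moderation) was run on log2(value + 1) for genes with at least 10 in at least 3 libraries, with 7 locations in one fit, and was tested on simulated counts. EdgeR 4.0.16 and DESeq2 1.42.0 were run on the recovered reads as alternatives, beside other pseudocounts, no filter, TMM scaling, a replicate block and fits without single libraries or replicate numbers. Deviations from location means correlated between 0.27 and 0.53 in all 63 pairs of libraries with the same replicate number at different locations. The numbers thus pair the libraries, as read from the data and not from the labels. In the 126 pairs with different numbers the correlations lay between -0.32 and -0.05. Deviations add up to 0 within a location, so these negative values largely follow from the positive ones and are no separate evidence. Named genes were the 7 members, up to 3 called genes per list in each anterior-posterior contrast, and the 2 genes outside the HOXA cluster most correlated with each member. The unnamed cluster rows, the limb bud markers and the neuron markers ISL1, STMN2 and NEFM were named after their values were seen. Members and lists were chosen with earlier results of these data known.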

Additional observations from a re-analysis of the deposited data

Results flagged for a closer look

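HOXA6 and HOXA7 are listed because their anterior to posterior change differed between back and belly by the test of that difference itself (limma). For HOXA6 the anterior to posterior log2 fold change was 0.16 on the back and -3.08 on the belly. The back value minus the belly value was 3.24 (SE 0.70, adjusted p = 0.038), with the same sign in 3 of 3 replicate numbers. HOXA7 stood at -0.32 on the back and -3.28 on the belly, a difference of 2.96 (SE 0.48, adjusted p = 0.00869), also with the same sign in 3 of 3 replicate numbers. HOXA6 lost its call in 12 of 21 fits without a single library and with edgeR (adjusted p = 0.0591). Both genes lost their calls without any 1 replicate number. Over all genes, calls for this difference fell to as low as 0 in fits without a library or replicate number. With the compared libraries alone limma called neither HOXA6 (adjusted p = 0.131) nor HOXA7 (0.0622). HOXA6 averaged 223 ± 48.8 in dorsal anterior and 49.7 ± 39.0 in ventral anterior skin (SD, n = 3 each). HOXA7 averaged 249 ± 45.5 in dorsal anterior and 25.1 ± 13.1 in ventral anterior skin (SD, n = 3 each). Of 9 skeletal muscle markers 6 were found, with sums between 58.4 and 1383 in dorsal anterior, between 666 and 918.7 in dorsal posterior, between 1235 and 3210 in ventral anterior and between 22.0 and 895 in ventral posterior libraries. None of the 6 was called by limma on the back or the belly (0 with edgeR and DESeq2, and 0 on the back and 3 on the belly unadjusted). For the difference between back and belly limma called 0 of the 6 (2 unadjusted), with a median of -4.64. Of 5 epidermis markers it called 1 in that test, with a positive difference (1 with edgeR, 2 with DESeq2, 4 unadjusted) and a list median of 1.01. The part of these markers in the result was not tested.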

How the results depend on the processing

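The direction of every called member in the anterior-posterior contrasts on back and belly was kept under all alternatives run. With the compared libraries alone, the members called fell to 4 for the belly contrast and 0 for the difference between back and belly. They fell to 1 for dorsal anterior against saddle, 0 for saddle against dorsal posterior and 2 for the sides at the anterior end. These fits had fewer samples, and the filter on low values was applied to their libraries alone. HOXA11 did not pass it for dorsal anterior against saddle and was not tested there. The same held for HOXA9 between the sides at the anterior end. The difference between back and belly called 4 members with the replicate block and 5 with DESeq2. Dorsal against ventral called 1 with a pseudocount of 0.5, with no filter and with edgeR. The block changed no member's call other than those named with the results.

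Leaving out a library or a replicate number gave between 6 and 7 members for any location, 4 and 5 on the back, 4 and 7 on the belly, 0 and 3 for their difference, 0 and 6 for dorsal anterior against saddle, 0 and 1 for saddle against dorsal posterior, 3 and 5 for ventral anterior against ventral-most, 0 and 2 for ventral-most against ventral posterior, 1 and 5 for the anterior sides, 0 and 0 for the posterior sides and 0 and 3 for dorsal against ventral. Signs turned only in uncalled values: HOXA11 in the difference between back and belly with edgeR (0.17) and DESeq2 (0.30), HOXA9 dorsal against ventral with a pseudocount of 5 (-0.11) and without single libraries or numbers (-0.19 to 0.47), HOXA4 in that contrast (-0.40 to 0.00), HOXA6 on the back (-0.04 to 0.35) and HOXA11 between the anterior sides (-0.52 to 0.81). The causes were not tested.

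Over all genes, counts moved by over 1.5 times with the block in all 11 comparisons, as given with the results, and with DESeq2 to 3462 for any location, 598 on the back, 499 on the belly, 380 for their difference, 285 and 89 for the steps on the back, 582 and 321 for those on the belly and 479 for the posterior sides. With the compared libraries alone they were 142, 39 and 34 for back, belly and their difference, 31 and 0 for the steps on the back, and 490 and 85 for the sides at the anterior and posterior ends. EdgeR called 10 genes between saddle and dorsal posterior skin. Without single libraries or numbers they reached as low as 252 for any location, 26 on the back, 25 on the belly, 0 for their difference, 3 and 0 for the steps on the back, 19 and 0 for those on the belly, 185 and 13 for the sides and 822 for dorsal against ventral. TMM scaling moved the median of all genes by at most 0.011 (log2). HOXA11 had 5 reads in dorsal anterior, 2 in ventral anterior and 2 in ventral-most skin, and HOXA9 had 7 in ventral anterior skin. At this depth, differences among levels so low were not detectable.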
